A study of Mus musculus with 2 samples.

Results

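Neurexins and neuroligins are cell adhesion proteins that face each other across the synaptic cleft. The genes described here are the neurexins Nrxn2 and Nrxn3 and the neuroligins Nlgn1, Nlgn2 and Nlgn3, taken by gene symbol, which makes 5 of the 55536 annotated genes in the tables and 46 annotated transcript models. They were measured by total RNA sequencing in hippocampus (the labels say a layer of it) from males of the F1 hybrid strain B6CASTF1/J aged 25 days. There was 1 group of 2 biological replicates, each made from 300 ng of RNA with synthetic ERCC spike-ins, so no condition was compared and no p-value is given. Both replicates carry the same donor identifier but separate tissue sample identifiers, so the spread between them may be technical. Replicate 1 had 30635891 expected counts on annotated genes and replicate 2 had 35713471.

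Neurexins sit in the presynaptic membrane. Each neurexin gene makes a long alpha protein and, from a promoter further inside the gene, a short beta protein that keeps the part that binds neuroligins. Neuroligins sit in the postsynaptic membrane and resemble cholinesterases outside the cell: Nlgn1 is known from excitatory synapses, Nlgn2 from inhibitory synapses and the X-linked Nlgn3 from both. Small alternative exons in both families, called inserts below, change which partners a protein binds. The tissue label was checked against marker genes. All 13 hippocampal and neuronal markers stood at 10 transcripts-per-million (TPM) or more, as did all 10 markers of glia, vessels, immune cells and choroid plexus, while 0 of 5 genes of cell bodies outside the hippocampus reached 1 TPM. The samples therefore held several cell types, and in such bulk tissue fewer cells of a type and less RNA per cell cannot be told apart.

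The insert that is best known for partner choice in neurexins lies at splice site 4, an exon of 90 bases (30 codons) within the last LNS domain, the part that alpha and beta neurexins share. In Nrxn3 it lies at chr12:90199147-90199236 on the plus strand of mm10. This exon is shown because the share of transcripts that keep it is a main result below.
Nrxn3 splice site 4: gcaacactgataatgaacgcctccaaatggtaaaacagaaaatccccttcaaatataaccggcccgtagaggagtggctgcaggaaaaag

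All 5 genes were expressed well above the bulk of the genome. Levels here are TPM, which corrects for transcript length, from the RSEM gene table. Nrxn2 (ENSMUSG00000033768.17, chr19:6418731-6544169, plus strand) was the highest, at 198.12 TPM in replicate 1 and 210.62 in replicate 2 (204.4 ± 8.84, SD, n = 2). Nlgn2 (ENSMUSG00000051790.15, chr11:69823122-69837784, minus strand) stood at 93.37 and 92.12 TPM (92.7 ± 0.884). Nlgn3 (ENSMUSG00000031302.16, chrX:101299168-101325963, plus strand) stood at 90.21 and 87.34 TPM (88.8 ± 2.03). These neuroligins lay close together and below Nrxn2 in both replicates. Nrxn3 (ENSMUSG00000066392.11, chr12:88722876-90334935, plus strand) stood at 84.01 and 71.03 TPM (77.5 ± 9.18). Nlgn1 (ENSMUSG00000063887.13, chr3:25426215-26332460, minus strand) was the lowest, at 45.6 and 42.66 TPM (44.1 ± 2.08). Neighbours in this order did not overlap between replicates. The authors also deposited a credibility interval for each estimate, whose level is not given in the sources used here. In replicate 1 these intervals ran from 87.1 to 95.7 TPM for Nlgn2, from 84.4 to 90.9 for Nlgn3 and from 78.6 to 87.3 for Nrxn3, so each of these 3 genes overlapped the others. In replicate 2 the intervals of Nlgn2 (87.6 to 93.2) and Nlgn3 (82.4 to 88.1) overlapped and that of Nrxn3 (67.0 to 73.8) lay below both. By these intervals, Nlgn2 and Nlgn3 were not ordered in either replicate, and Nrxn3 was below them in replicate 2 alone.

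Only 1.30% of protein-coding genes stood at or above Nrxn2, and 10.8% at or above Nlgn1, with Nlgn2 (4.35%), Nlgn3 (4.62%) and Nrxn3 (5.48%) between them. All 5 genes passed 10 TPM, which 36.7% of the 22015 annotated protein-coding genes did. The genes span very different stretches of genome. Nrxn3 covers 1612060 bases, Nlgn1 906246, Nrxn2 125439, Nlgn3 26796 and Nlgn2 14663. The genes with the longest spans were the lowest of the 5 by RSEM TPM. Level did not simply follow span, since Nrxn2, the highest, spans more than Nlgn2 and Nlgn3. The TPM of both neurexins together was 282.13 and 281.65 in the replicates, against 229.18 and 222.12 for the 3 neuroligins. Their ratio was 1.23 and 1.27, and 1.06 and 1.10 when only complete coding models were summed, a setting added after the data were seen. In kallisto it was 1.29 and 1.34. Summed expected counts, which are not corrected for length, gave 0.895 and 0.909, so which family was the larger depends on the measure.

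**Figure D1:**
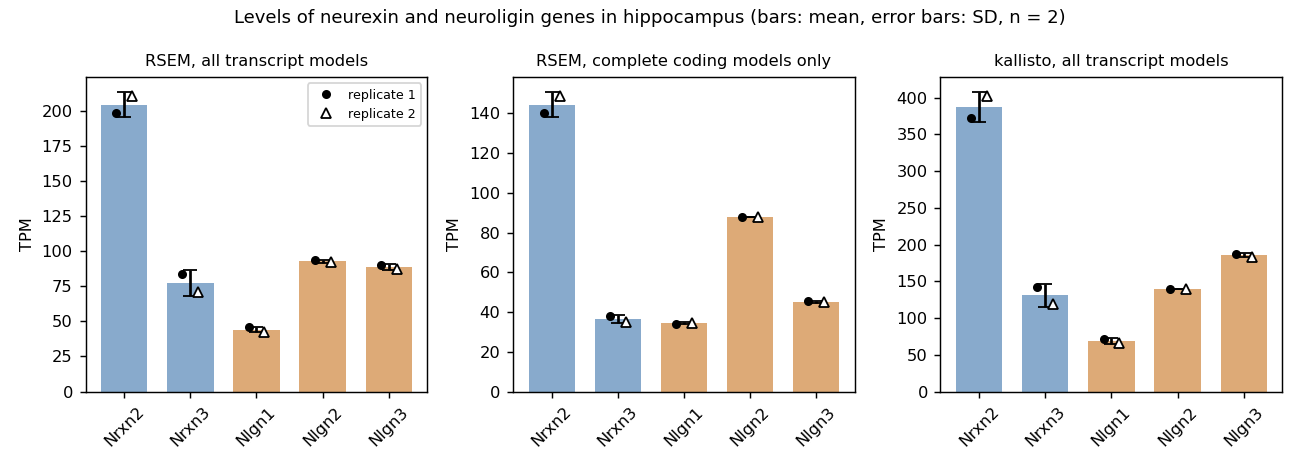
Level of each gene in TPM (y axes) from RSEM over all transcript models, from RSEM over complete coding models alone, and from kallisto over all models; bars are means, error bars SD over 2 replicates, and points the replicates. Nrxn2 is the highest in each panel, while Nlgn3 lies below Nlgn2 in both RSEM panels (88.8 against 92.7 TPM over all models) and above it in kallisto (185.6 against 139.7).

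The second quantification, a transcript table with the columns of kallisto, put Nrxn2 at 373 and 401 TPM, Nlgn3 at 188 and 184, Nlgn2 at 139.9 and 139.5, Nrxn3 at 142 and 119, and Nlgn1 at 71.4 and 65.9. Here Nlgn3 stood clearly above Nlgn2, and Nrxn3 and Nlgn2 overlapped between replicates. All 5 genes had a higher TPM in kallisto than in RSEM, and the tables were therefore also compared on a common scale. With both tables scaled to nuclear protein-coding genes, the kallisto level was 1.14 times the RSEM level for Nrxn2, 1.02 for Nrxn3, 0.937 for Nlgn1, 0.908 for Nlgn2 and 1.26 for Nlgn3. None of the 5 genes differed by more than 1.5-fold between the tables, against 5.70% of 12956 genes.

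The neurexin genes divided their transcripts differently between alpha and beta. A model was called alpha-length where its annotated coding sequence has at least 3000 bases and beta-length where it has at least 900 but under 3000. By this rule Nrxn2 has 6 alpha-length and 2 beta-length models and Nrxn3 has 3 and 2. In Nrxn2, alpha-length models summed to 48.35 and 53.7 TPM and beta-length models to 91.63 and 95.15. In Nrxn3, alpha-length models summed to 32.19 and 30.06 TPM and beta-length models to 5.68 and 5.06. By these model estimates, beta transcripts outnumbered alpha transcripts in Nrxn2 and were the minority in Nrxn3, in both replicates. The annotated ends differ between the models. Alpha-length Nrxn2-204 ends at chr19:6532278, but beta-length Nrxn2-202 at 6533217 and alpha-length Nrxn2-201 at 6533216. Alpha-length Nrxn3-205 ends at chr12:90334935, past both beta-length models (90332899 and 90333443). Whether these ends shift reads between the classes was not tested.

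Alpha-length models made up 34.5% and 36.1% of the alpha plus beta TPM in Nrxn2 (35.3% ± 1.09) and 85.0% and 85.6% in Nrxn3 (85.3% ± 0.418). The kallisto means were 40.8% and 85.5%, so the contrast between the genes was present in both tables. Measured by expected counts, which favour long transcripts, the alpha share was 47.4% in Nrxn2 and 94.2% in Nrxn3. Nrxn2 exceeded Nrxn3 in both classes but by unlike amounts: 1.502-fold and 1.786-fold for alpha-length TPM, and 16.1-fold and 18.8-fold for beta-length TPM. A beta transcript carries 704 (Nrxn2-202) or 1158 (both Nrxn3 models) bases in exons that no alpha-length model of its gene shares.

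A single model led each beta class. Nrxn2-202 (3503 bases, 1980 of them coding) held 91.43 and 94.98 TPM, and Nrxn2-203 held 0.2 and 0.17. In Nrxn3, Nrxn3-203 (1290 coding bases) held 5.2 and 4.38 TPM and Nrxn3-202 (1701 coding bases) 0.48 and 0.68. In kallisto the Nrxn3 models were closer, at 6.70 and 5.08 TPM for Nrxn3-203 and 1.31 and 1.92 for Nrxn3-202. Beta proteins differ from alpha proteins in their first residues, encoded by an exon of their own. The first 60 coding bases of that exon are shown because it is found in beta transcripts alone among the alpha-length and beta-length models, with the start codon in capitals; the coding part of the exon runs over 253 bases at chr19:6498279-6498531 in Nrxn2 and 241 bases at chr12:89813400-89813640 in Nrxn3.
Nrxn2 beta start: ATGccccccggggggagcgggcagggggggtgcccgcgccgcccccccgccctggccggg
Nrxn3 beta start: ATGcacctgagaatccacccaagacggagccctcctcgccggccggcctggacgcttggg

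Among the alpha models, 2 of 6 carried most of the Nrxn2 signal: Nrxn2-204 (4920 coding bases) at 28.97 and 34.1 TPM and Nrxn2-201 (4509 coding bases) at 19.38 and 18.84. The models Nrxn2-205, Nrxn2-216 and Nrxn2-218 were listed at 0 by RSEM in both replicates, and kallisto gave 10.8 and 6.20 TPM to Nrxn2-205, and 8.28 TPM in replicate 1 but 0.082 in replicate 2 to Nrxn2-216. In Nrxn3 the alpha class was almost entirely Nrxn3-205 (7922 bases, 4713 coding), at 29.57 and 27.82 TPM, ahead of Nrxn3-201 (3300 coding bases) at 2.62 and 2.24. The annotated start of Nrxn3-205 at chr12:88794504 is also where an internal exon of 5 other Nrxn3 models begins. The 30 bases before it (chr12:88794474-88794503, plus strand, from RefSeq's GRCm38.p6) are shown because their last 2, in capitals, read as the end of an intron.
Nrxn3 before the alpha exon: tcttctcctcttctctcccttcttcaacAG
How many of the reads on Nrxn3-205 came from transcripts that start further upstream was not tested.

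**Figure D2:**
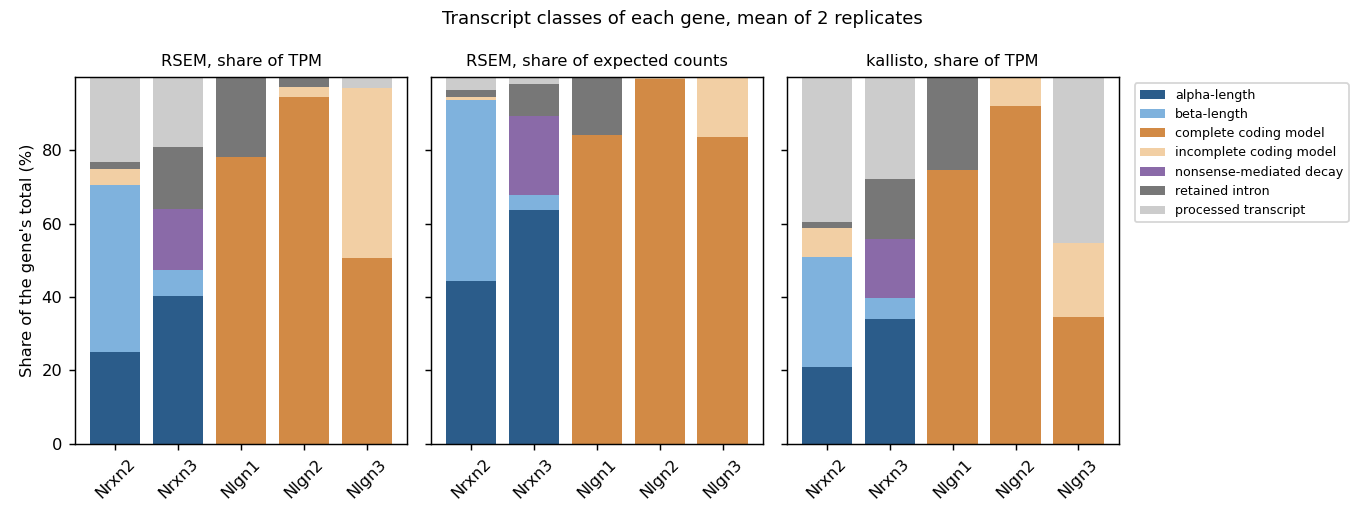
Share of each gene's total (y axis, %) in each class of annotated transcript model, as RSEM TPM, RSEM expected counts and kallisto TPM; stacked bars are means of 2 replicates. The beta-length class is the largest in Nrxn2 by RSEM TPM (45.7%) and small in Nrxn3 (6.94%), and the Nlgn3 bar is the least alike between panels.

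Most of the Nrxn2 and Nrxn3 TPM that could be scored lay on models with the splice site 4 exon. Inclusion here is the TPM of models with the exon over that of models with it or without it, so it comes from whole-transcript estimates and not from junction reads. In Nrxn2, models with the exon held 110.81 and 114.58 TPM and models without it 29.17 and 34.27, an inclusion of 79.2% and 77.0% (78.1% ± 1.54). In Nrxn3 they held 32.67 and 30.74 TPM against 5.2 and 4.38, an inclusion of 86.3% and 87.5% (86.9% ± 0.891). In kallisto, inclusion was 77.7% and 75.3% in Nrxn2 and 87.5% and 89.8% in Nrxn3. The only Nrxn3 model without the exon is beta-length, so the Nrxn3 value largely follows the alpha-length share. The replicate values of the genes did not overlap in RSEM or kallisto, but the annotation does not let their inclusion be compared.

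Split by class, each beta-length value rests on 1 model with the exon and 1 model without it. In Nrxn2, inclusion was 40.1% and 36.5% among alpha-length models and 99.8% in both replicates among beta-length models. In Nrxn3, the beta-length models included it at 8.45% and 13.4% (kallisto 16.4% and 27.4%), while all 3 alpha-length models contain the exon, so skipping within Nrxn3 alpha transcripts has no model to be assigned to and its inclusion cannot be estimated. The annotation ties the exon to other features in each case. The skipping Nrxn2 alpha model, Nrxn2-204, also lacks inserts of 72 and 27 bases. The skipping Nrxn2 beta model, Nrxn2-203, has 2526 bases in exons outside the alpha models and ends at chr19:6544169, past Nrxn2-202 (6533217). A beta transcript that skips the exon but ends as Nrxn2-202 does therefore has no model. The Nrxn3 beta models differ in coding length by more than this exon. Beta-length inclusion can thus not be compared between the genes either.

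Other neurexin inserts took low to high shares of the TPM scored. In Nrxn2 the exon of 24 bases (chr19:6463824-6463847) was included at 53.2% and 53.3%. The exon of 72 bases (chr19:6450528-6450599) was included at 46.8% and 47.8%, and the exon of 27 bases (chr19:6488784-6488810) at 40.1% and 36.5%. The 72- and 27-base exons have the same skipping model, Nrxn2-204, which is also the only alpha-length model without the splice site 4 exon. The 27-base values are therefore those of splice site 4 among alpha-length models. Over complete coding models, added after seeing the data, means were 38.3% for the 72- and 27-base exons and 62.4% for the 24-base exon. The exon of 30 bases (chr19:6448255-6448284) stood at 88.8% and 82.1%, where the only skipping model is the 648-base incomplete model Nrxn2-209, and at 98.3% by expected counts. In Nrxn3 an exon of 27 bases (chr12:89517906-89517932) stood at 8.14% and 7.45%. It is held by Nrxn3-201 and Nrxn3-210, which start at chr12:88953399 and 89193106, and skipped only by Nrxn3-205, which starts at 88794504. A transcript with the exon that starts as Nrxn3-205 does has no coding model, so whether the exon is rare cannot be told. The 27-base exons of the 2 genes, set side by side for their equal length, were alike at 6 of 27 positions (22.2%). Whether they lie at the same splice site was not tested.

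**Figure D3:**
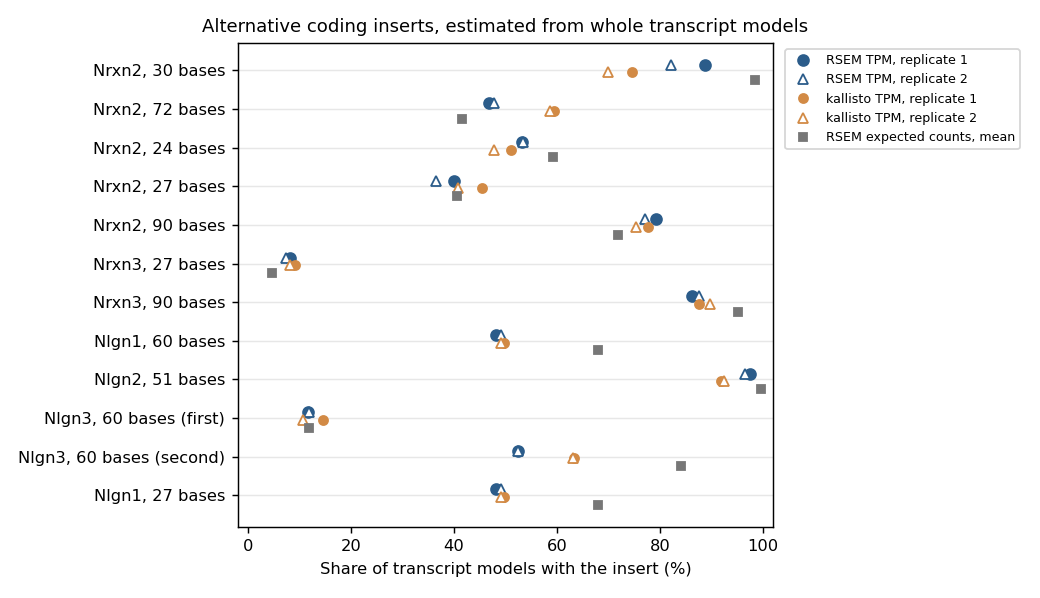
Share of transcript models with each of 12 alternative coding inserts (x axis, %), by replicate for RSEM TPM and kallisto TPM and as the mean for RSEM expected counts; each row is a gene and the length of its insert. The splice site 4 exons of 90 bases lie at 78.1% in Nrxn2 and at 86.9% in Nrxn3, where no alpha-length model lacks the exon. The rows of Nlgn1 and the second Nlgn3 exon show the widest gap between TPM and counts.

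Nlgn2 and Nlgn3 each made up about as much of the neuroligin total as the other, with Nlgn1 behind. By TPM, Nlgn1 took 19.9% and 19.2% of the sum of the 3 genes, Nlgn2 40.7% and 41.5%, and Nlgn3 39.4% and 39.3%. Nlgn2, the neuroligin of inhibitory synapses, exceeded Nlgn1, that of excitatory synapses, 2.05-fold and 2.16-fold. The balance between Nlgn2 and Nlgn3 turned on the models counted: their ratio was 1.04 and 1.05 over all models, 0.746 and 0.760 in kallisto, and 1.93 and 1.95 over complete coding models. In complete models Nlgn2 took 52.4% of the neuroligin sum, Nlgn3 26.97% and Nlgn1 20.6%, so the Nlgn1 share varied least across these settings.

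The tables disagreed most over short models of Nlgn3. RSEM assigned 41.26 and 40.8 TPM to Nlgn3-203, an incomplete coding model of 1852 bases, about as much as to the full-length Nlgn3-201 of 8465 bases (39.67 and 39.51). Nlgn3-203 thus held 46.2% of the gene's TPM but 16.0% of its expected counts. In kallisto, the processed transcripts Nlgn3-204 (26.9 and 23.9 TPM) and Nlgn3-205 (59.0 and 58.7) together took 45.4% of TPM and 5.10% of counts. RSEM gave these same models 2.01 and 0.77, and 1.62 and 0.96 TPM. Nlgn3-203 was also present in kallisto, at 37.4 and 37.2 TPM (20.1%), and the full-length Nlgn3-206, with the upstream insert described below, held 5.26 and 5.31 TPM in RSEM. The short processed transcripts were thus high in kallisto alone, in addition to Nlgn3-203, and for each of these groups the TPM share was several times the count share.

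Nlgn2 was the simplest gene of the 5. Nlgn2-202 (5568 bases) held 78.08 and 79.09 TPM, 84.7% of the gene's TPM and 90.2% of its counts, and Nlgn2-201 held 9.5 and 8.5. In kallisto the latter was listed at 31.8 and 31.9 TPM and Nlgn2-202 held 69.3%. Both models have the same coding length of 2508 bases, so this difference does not touch the amount of coding transcript.

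Nlgn1 was spread over more models, the leading Nlgn1-203 (3013 bases) at 16.11 and 16.72 TPM, Nlgn1-201 at 10.73 and 11.68, and Nlgn1-205 (11807 bases) at 5.71 and 5.38. The retained-intron model Nlgn1-204 held 11.41 and 7.96 TPM. By expected counts, Nlgn1-205 led with 32.9%, since it is the longest. No Nlgn1 model therefore dominated by both measures.

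Neuroligins carry an insert at a position known as site A in the cholinesterase-like part, and Nlgn1 a further insert at site B. The site B insert is known to weaken the binding of Nlgn1 to alpha neurexins. The inserts are printed to show how the paralogs relate; capitals in the Nlgn3 exons mark bases that differ from the Nlgn1 site A exon aligned without gaps, and the other inserts are left in lower case. All are given in the direction of the gene.
Nlgn1 site A: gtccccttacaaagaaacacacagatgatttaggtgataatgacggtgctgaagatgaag
Nlgn3 upstream exon: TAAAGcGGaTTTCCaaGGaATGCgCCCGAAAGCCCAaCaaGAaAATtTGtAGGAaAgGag
Nlgn3 downstream exon: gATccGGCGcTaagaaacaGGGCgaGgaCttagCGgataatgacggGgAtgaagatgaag
Nlgn2 site A: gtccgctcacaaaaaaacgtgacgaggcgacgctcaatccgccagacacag
Nlgn1 site B: gtaaccgttggagcaattcaaccaaag
The downstream Nlgn3 exon was identical to the Nlgn1 exon at 43 of 60 positions (71.7%) and the upstream one at 16 of 60 (26.7%).

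The share of TPM on models with these inserts is given for each gene. For Nlgn2 site A and the downstream Nlgn3 exon, only an incomplete model lacks the insert, so the genes cannot be compared. In Nlgn2, the 51-base site A exon (chr11:69830563-69830613) was in 97.5% and 96.4% of the TPM scored, with the 784-base incomplete model Nlgn2-203 (2.27 and 3.25 TPM) as the only one without it. In Nlgn1, the 60-base site A exon (chr3:25920178-25920237) was in 48.1% and 49.2% (48.6% ± 0.764), and in 67.9% by expected counts. The 27-base site B insert of Nlgn1 (chr3:25439865-25439891) gave the same values, because Nlgn1-201 and Nlgn1-205 carry both inserts and Nlgn1-202 and Nlgn1-203 carry neither, so the tables cannot separate A from B.

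In Nlgn3, the upstream exon (chrX:101303072-101303131), which is the less similar to Nlgn1, was in 11.6% and 11.8% and stood at 11.8% by counts. The downstream exon (chrX:101307075-101307134) was in 52.3% in both replicates and in 84.0% by counts, and the only model that skips it is the incomplete Nlgn3-203. The upstream exon was thus low by TPM and by counts among the models scored for it. These are Nlgn3-201, Nlgn3-202 and Nlgn3-206, so Nlgn3-203 does not enter that value. Only Nlgn3-206 is listed with the upstream exon, and counting Nlgn3-203 as skipping it would lower the share by TPM and by counts. The use of the downstream exon, for which Nlgn3-203 is scored, depended on the measure.

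Nrxn3 stood apart in how little of its TPM lay on protein-coding models. Coding models held 47.3% ± 3.08 of TPM in Nrxn3, 75.0% ± 1.75 in Nrxn2, 78.2% ± 4.50 in Nlgn1, 97.4% ± 1.68 in Nlgn2 and 97.0% ± 1.45 in Nlgn3. By expected counts the shares were 67.8% in Nrxn3, 94.5% in Nrxn2, 84.2% in Nlgn1, 99.9% in Nlgn2 and 99.6% in Nlgn3, so Nrxn3 stayed the lowest. In Nrxn3, models marked for nonsense-mediated decay, a route that removes transcripts with early stop codons, took 21.6% of counts: Nrxn3-208 held 5.26 and 6.59 TPM and Nrxn3-213 held 8.67 and 5.62. Their coding frames have 4173 and 3027 bases, so they span alpha exons and are outside the alpha sums above. In Nrxn2 the largest non-coding model was Nrxn2-213, only 576 bases long, at 24.67 and 29.95 TPM, which was 13.3% of TPM and 2.02% of counts. The similarly short Nrxn2-211 stood at 12.26 and 11.61 TPM, Nrxn2-217 at 6.98 and 3.68 and the incomplete coding model Nrxn2-209 at 6.12 and 11.68. In Nrxn3 the short Nrxn3-211 (525 bases) stood at 11.96 and 9.87 TPM, 14.1% of TPM and 1.26% of counts, and Nrxn3-207 at 4.38 and 2.07. Short models thus took a larger part of TPM than of counts in both neurexins. Overlapping genes on the same strand (up to 2.62 TPM, Gm37573 within Nlgn1) or the opposite strand (up to 3.18 TPM, A830092H15Rik within Nlgn1) were low beside the genes they overlap, and no annotated gene overlaps Nlgn2.

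Models with a retained intron were lower in replicate 2, a comparison chosen after the data were seen. Retained-intron TPM was 4.97 and 3.02 in Nrxn2, 14.59 and 11.4 in Nrxn3 (11.46 and 9.79 of it on Nrxn3-204), 11.41 and 7.96 in Nlgn1 and 3.51 and 1.28 in Nlgn2. All 7 such models of these genes whose expected counts averaged at least 10 were lower in replicate 2, with a median log2 ratio of -0.69. The background was nearly as one-sided: 81.6% of 12361 retained-intron models across the genome were lower, with a median of -0.53, so the direction is shared with other genes. Of the 21 protein-coding models of the 5 genes, 11 were lower. In Nrxn3, the replicate gap of 12.97 TPM consisted of 10.22 TPM on models not annotated as protein-coding and 2.75 on coding models. The coding models summed to 37.87 and 35.12. The 10.22 TPM also covers nonsense-mediated decay models and processed transcripts, and retained introns (14.59 and 11.4) are only a part of it.

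**Figure D4:**
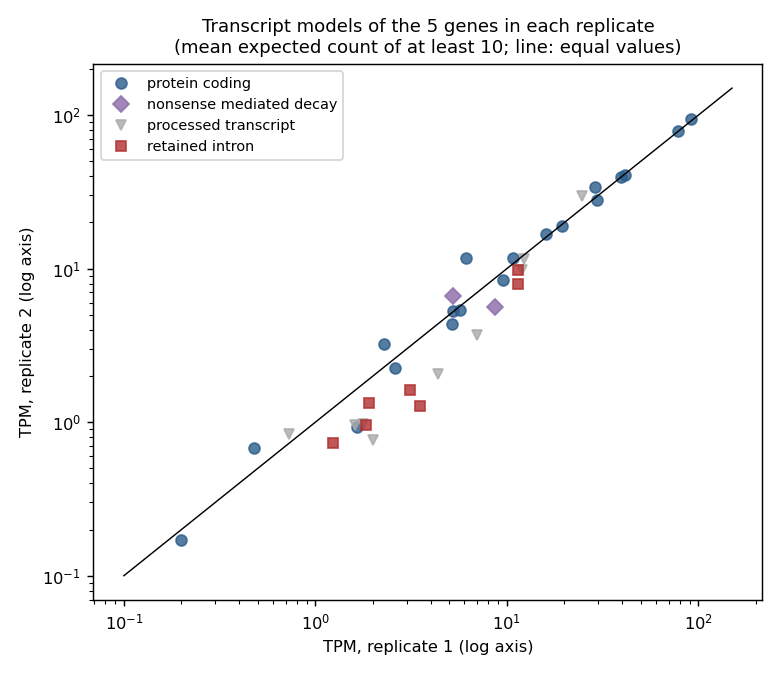
TPM of each transcript model of the 5 genes in replicate 1 (x axis) and replicate 2 (y axis), both log axes, for models whose expected counts averaged at least 10; symbols mark the annotated type and the line marks equal values. The 7 retained-intron models lie below the line, while protein-coding models lie on both sides of it.

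The replicates were close for all 5 genes. The log2 ratio of replicate 2 over replicate 1, from expected counts with TMM scaling, was 0.13 for Nrxn2, -0.10 for Nrxn3, -0.05 for Nlgn1, 0.04 for Nlgn2 and 0.02 for Nlgn3. None of the 5 was over 1.5-fold apart, as were 2.30% of the 12719 genes whose expected counts averaged at least 100. Nrxn2 and Nrxn3 lay farthest apart of the 5, yet 43.0% and 53.7% of those genes had a larger ratio in size. Scaling to the spike-ins instead moved the median of all genes from 0.04 to -0.17 and made all 5 values negative, so the signs for Nrxn2, Nlgn2 and Nlgn3 depend on the scaling.

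The partners of these proteins were mostly present, with the ligands across the cleft the most uneven group. Of 82 genes in 6 lists, 75 reached 1 TPM and 65 (79.3%) reached 10 TPM, and the median was 37.4 TPM. Of all 22015 protein-coding genes, 12964 reached 1 TPM and 8084 (36.7%) reached 10 TPM, with a median of 3.42 TPM. Among 25 further neurexin ligands, 20 reached 1 TPM and 13 (52%) reached 10, nearer to the share over all protein-coding genes than the lists together. The calsyntenins Clstn1 (355.3 TPM) and Clstn3 (121.3) and the complement-like C1ql3 (67.4) led, Lrrtm1 stood at 53.0, and the secreted cerebellins Cbln1 (2.44) and Cbln2 (5.18) were low. Fam19a3 was the lowest, listed at 0 in replicate 1 and at 0.01 TPM in replicate 2.

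Inside the presynaptic cell, 11 of 12 neurexin partners reached 10 TPM. The membrane skeleton protein Epb41l1 (146.2 TPM), the adaptor Apba2 (114.5) and the scaffold Caskin1 (67.4) were the highest, and Sytl4 (0.395) was the lowest. On the postsynaptic side, all 16 genes listed as partners of neuroligins passed 10 TPM. They were led by Nsmf (416.7), which carries signals from synapses to the nucleus, the excitatory scaffold Dlg4 (380.9) and Shank1 (274.8), with Magi3 (12.6) the lowest and Gphn, the scaffold of inhibitory synapses, at 33.1. Of the 9 cleft inhibitors and co-receptors, 8 passed 10 TPM. Sparcl1, an astrocyte protein that bridges neurexin and neuroligin, stood at 622.5 TPM and the receptor phosphatases Ptprs and Ptprd at 296.6 and 77.4. Mdga1 (27.97) and Mdga2 (20.4), which block neuroligins from neurexins, were below all 5 genes, and Thbs1 (1.12) was the lowest.

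Enzymes that cleave these proteins and factors that splice their inserts were also measured. Among 7 cleaving enzymes, 5 passed 10 TPM, with Bace1 (40.9 TPM) and Psenen (35.4) the highest and Mmp9 (0.635) the lowest. Among 13 splicing regulators, 12 passed 10 TPM. Rbfox1 (179.5), Khdrbs3 (143.6) and Rbfox3 (120.5) led. The Khdrbs proteins are known to promote skipping of the splice site 4 exon, and their levels differed: Khdrbs1 stood at 37.7 TPM and Khdrbs2, the lowest of the list, at 6.39.

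Of all 82 partner genes, 7 stood above Nrxn2, 17 above each of Nrxn3, Nlgn2 and Nlgn3, and 34 above Nlgn1. The partner nearest in level over the 2 libraries, by distance on the log2(TPM + 0.1) scale, was Dlgap1 for Nrxn2 (0.22), Ptprd for Nrxn3 (0.020), Elavl2 for Nlgn1 (0.10), and Rbfox2 for both Nlgn2 (0.12) and Nlgn3 (0.21). Ptprd stood at 83.18 and 71.71 TPM, close to Nrxn3 in each replicate. With only 2 libraries, such likeness is a description of level.

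**Figure D5:**
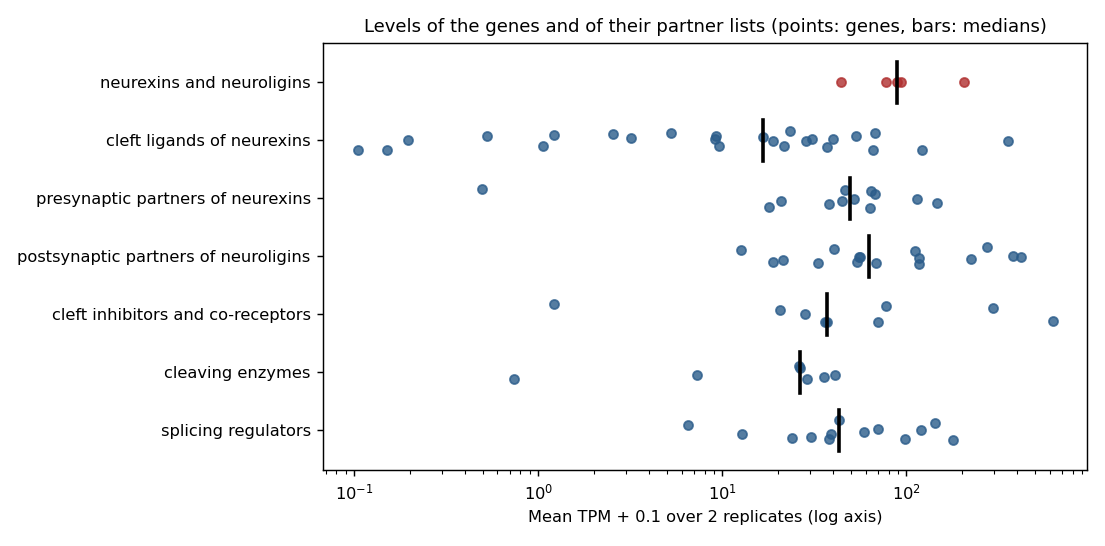
Mean TPM + 0.1 (x axis, log scale) of the 5 genes and of the genes in 6 partner lists; points are genes and bars list medians. The 5 genes lie between 44.1 and 204.4 TPM, and the cleft ligands spread widest, from near 0 to 355.3 TPM.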

How the data were processed

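Total RNA libraries of 2 hippocampal samples were analysed. Per the text notes deposited with them, the tables refer to mm10 and GENCODE M21. The aligner and program versions were not given in the sources used here. The authors deposited expected counts and TPM per gene and transcript in tables with RSEM's columns, and estimated counts and TPM in a table with kallisto's columns; the deposited TPM divides estimated counts by effective length, so short models gain. Other deposited values used were RSEM's posterior means, posterior SDs and credibility intervals. Reads of the F1 hybrid are placed on the reference strain's sequence, an effect that was not tested. Rows that name no annotated gene (spike-ins and numbered rows) held 0.367% and 0.414% of counts and stayed out of library sizes. kallisto counts on annotated genes were 31120712 and 36017815. No column was left without a sample.

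Levels are mean ± SD of 2 replicates. Coding lengths, positions and exon sequences came from the GENCODE annotation and transcripts, and the bases before Nrxn3-205 from RefSeq's GRCm38.p6. Inserts are coding stretches that some coding models hold and others skip. Ratios used rounded expected counts, TMM factors of edgeR 4.0.16 (R 4.3.3) and a prior count of 0.5. In libraries simulated for that ratio over 55536 genes, 193 of 193 genes changed 3-fold were called in the right direction, and 81 of 12534 unchanged genes were called. Every simulated gene had the same noise setting, and more genes (293 of 12719) were called between the real replicates. The simulation therefore does not show how often unchanged genes are called in these data. Alternatives used DESeq2 1.42.0 size factors, spike-ins, kallisto, counts, other pseudocounts and filters, and each replicate alone. Python 3.11.15, pandas 2.3.3, numpy 2.4.6 and matplotlib 3.10.9 were used for tables and figures.

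Genes and transcripts were named by rule: all 5 members, the transcripts with at least 5% of their gene's TPM, the 3 highest and the lowest gene of each partner list and the nearest partner of each member; further list genes (Lrrtm1, Cbln1, Cbln2, Gphn, Mdga1, Mdga2, Khdrbs1), transcripts and overlapping genes were picked after their values had been seen. A list gene that the rule takes and an exon sequence are not reported here. The members and lists were chosen with earlier results of these data known.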

Additional observations from a re-analysis of the deposited data

How the results depend on the processing

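With 1 group of 2 replicates, precision is limited to the spread of these libraries, and isoform values rest on annotated models. No paired analysis was possible because there is only 1 group. Of 184 alternative values, 105 moved by less than the replicate spread and 79 by more; counts of genes were judged by a factor of 1.5, and the 20 replicate ratios of single genes by the SD of log2 ratios over all genes (0.28), which none exceeded. Some orders turned: the Nrxn2 inserts of 72 bases (47.3% in RSEM, 59.0% in kallisto) and 24 bases (53.3%, 49.5%) changed places, Nlgn2 was above Nlgn3 in RSEM and below it in kallisto, Nlgn3-203 led its gene by RSEM TPM but not in kallisto or by counts, and neurexins exceeded neuroligins by TPM but not by counts. The replicate log2 ratio of Nrxn2 changed sign with spike-in scaling and those of Nlgn2 and Nlgn3 with spike-in scaling and with deposited TPM. The 66 values that used a single replicate lie within 1 SD of the mean by construction and show nothing about stability. The cause of the larger moves was not tested.

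For Nrxn2, Nrxn3, Nlgn1, Nlgn2 and Nlgn3 in this order, mean TPM was 387.1, 130.7, 68.6, 139.7 and 185.6 in kallisto. Scaled over nuclear protein-coding genes it was 460.9, 175.0, 99.6, 209.2 and 200.3, and over complete coding models, an alternative added after seeing the data, 144.4, 36.5, 34.5, 87.6 and 45.1. Posterior means gave 90.8 for Nlgn2 and 86.5 for Nlgn3. The neuroligin shares of Nlgn1, Nlgn2 and Nlgn3 were 17.4%, 35.5% and 47.1% in kallisto, 17.5%, 42.4% and 40.1% by counts and 20.6%, 52.4% and 26.97% over complete models.

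The alpha-length share of Nrxn2 was 40.8% in kallisto, 47.4% by counts and 25.0% with all models as the denominator. For Nrxn3 it was 94.2% by counts, 40.3% of all models and 78.6% when alpha was set by a transcript length of at least 5000 bases. The leading transcript's share in kallisto was 29.99% (Nrxn2-202), 31.0% (Nrxn3-205), 69.3% (Nlgn2-202) and 20.1% (Nlgn3-203). By counts it was 49.2%, 60.9%, 90.2% and 16.0% for the same models and 24.3% for Nlgn1-203. Coding models held 58.9% of Nrxn2, 39.6% of Nrxn3, 100% of Nlgn2 and 54.6% of Nlgn3 in kallisto. By counts they held 94.5%, 67.8%, 99.9% and 99.6% of these genes and 84.2% of Nlgn1. Inclusion of the splice site 4 exon was 71.8% by counts in Nrxn2, and 88.6% in kallisto and 95.0% by counts in Nrxn3; counts were added here after seeing the data.

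Genes over 1.5-fold apart between replicates numbered 293, against 561 with spike-in scaling, 591 in kallisto and 2284 when expected counts averaging 10 were enough. The median log2 level of all partner genes was 5.23, against 5.27 with a pseudocount of 1, 5.32 for genes at 1 TPM or more and 5.85 in kallisto.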
